A study of Mus musculus with 8 samples.

Results

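The interferon regulatory factors are a family of transcription factors, and 8 of their genes (Irf1, Irf2, Irf3, Irf4, Irf5, Irf7, Irf8 and Irf9) were followed in mouse macrophages exposed to LECT2, a protein that liver cells secrete into the blood. They were chosen by name, as the probes whose annotated RefSeq transcript belongs to these genes. The arrays carried 9 such probes among 39429, and all 8 genes were among the 26123 genes tested. Macrophages from the mouse peritoneum were kept in low-glucose medium with serum and exposed to LECT2 at 0.5 µg/ml (the low dose) or 5 µg/ml (the high dose), or to none (control), for 3.5 h or 48 h. No strain, genotype, age or sex of the mice is given in the labels used here. RNA was measured on 8 two-colour Agilent arrays, each with a LECT2 sample in Cy3 and a control sample of the same time in Cy5. Each dose and time was measured on 2 arrays, called replicate 1 and replicate 2, which gives 4 groups; the study made 2 independent experiments with different mice. The labels do not say whether the low-dose and high-dose arrays of an experiment shared a control culture.

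Interferon regulatory factors share a DNA-binding domain that recognises interferon-stimulated response elements, and differ in what activates them. Irf3 and Irf7 proteins are phosphorylated by the kinases Tbk1 and Ikbke downstream of sensors of foreign nucleic acid and switch on type I interferon genes. Irf9 protein is the DNA-binding part of the complex ISGF3, which carries the signal of the type I interferon receptor to the nucleus. Irf1 is induced by interferon gamma and by NF-kB, Irf2 is known to oppose Irf1 at shared sites, Irf5 acts downstream of Toll-like receptors through Myd88, Irf8 works with the factor Spi1 in macrophages, and Irf4 is linked to alternative activation of macrophages.

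Promoter sequence is printed for Irf1, Irf2, Irf7 and Irf8. This choice does not follow the calls below: Irf8 was called in no comparison, and Irf9, called at the high dose at 3.5 h, is not printed. Each run comes from the RefSeq table of build GRCm38.p6 and covers the 250 bases before an annotated start of the gene. For Irf7 this start lies inside the annotated gene, and the run covers the 175 of these bases that lie outside the gene. Every run is written 5′ to 3′ along the strand of the gene, at chr11:53769764-53770013 (+), chr8:46739495-46739744 (+), chr7:141266500-141266674 (-) and chr8:120736108-120736357 (+) in the order below. Capitals mark matches to 3 motifs searched on both strands: the core of the interferon-stimulated response element (GAAA, any 2 bases, then GAAA), the gamma-activated sequence (TTCNNNGAA), and the NF-kB consensus.
Irf1: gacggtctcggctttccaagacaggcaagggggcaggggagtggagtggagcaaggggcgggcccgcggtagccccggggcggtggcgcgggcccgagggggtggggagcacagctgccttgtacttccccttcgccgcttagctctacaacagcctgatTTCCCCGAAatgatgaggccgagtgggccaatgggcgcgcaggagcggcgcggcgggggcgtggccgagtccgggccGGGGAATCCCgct
Irf2: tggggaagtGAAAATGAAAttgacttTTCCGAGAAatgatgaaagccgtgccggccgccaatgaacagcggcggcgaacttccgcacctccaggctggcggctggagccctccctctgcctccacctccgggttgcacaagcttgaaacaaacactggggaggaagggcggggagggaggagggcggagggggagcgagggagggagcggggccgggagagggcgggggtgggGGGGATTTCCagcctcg
Irf7: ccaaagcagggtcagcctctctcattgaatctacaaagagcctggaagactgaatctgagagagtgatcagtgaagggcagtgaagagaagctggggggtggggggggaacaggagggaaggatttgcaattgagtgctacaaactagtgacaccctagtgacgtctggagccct
Irf8: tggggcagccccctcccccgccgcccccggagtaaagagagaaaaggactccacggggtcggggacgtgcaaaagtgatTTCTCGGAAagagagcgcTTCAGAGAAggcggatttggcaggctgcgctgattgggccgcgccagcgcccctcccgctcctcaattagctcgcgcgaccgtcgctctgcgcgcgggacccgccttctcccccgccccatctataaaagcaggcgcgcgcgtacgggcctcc

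The Irf1 window held a gamma-activated sequence, TTCCCCGAA, 90 to 82 bases before the start, and an NF-kB match, GGGGAATCCC, 13 to 4 bases before it. The Irf2 window held a response element core, GAAAATGAAA, a gamma-activated sequence, TTCCGAGAA, and an NF-kB match, GGGGATTTCC. The Irf8 window held 2 gamma-activated sequences, TTCTCGGAA and TTCAGAGAA. None of the 3 motifs was found in the windows of Irf3, Irf4, Irf5, Irf7 and Irf9, nor in the second annotated windows of Irf1, Irf8 and Irf9. Among 32851 windows of all genes, the response element core was found in 2.98%, the gamma-activated sequence in 7.02% and the NF-kB consensus in 7.25%. These matches describe letters and were not tested against the expression values.

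Effects below are log2 ratios of LECT2 over control, the deposited values (control over LECT2) with the sign turned round, so a positive value means more transcript with LECT2. Each group mean is over 2 arrays and is given ± SE from limma, with adjusted p-values from limma over all 26123 genes and a threshold of 0.05. The probe used for each member was well above background in both dyes on all 8 arrays, and no spot was saturated. LECT2 samples always carried Cy3 and controls Cy5, so LECT2 and a constant bias of the dyes cannot be told apart for a transcript, except in differences between doses or times. Median effects of all genes lay between -0.03 and 0.02 in the 4 groups, and the arrays had between 56.0% and 71.2% of probes above background in the LECT2 dye and between 63.1% and 82.0% in the control dye. Only 1 of the 8 deposited value columns best matched the scanner file recorded for its own sample; the 4 columns of 48 h matched another file with 99.5% of probes within 0.01, and those of 3.5 h matched less closely, 3 of them at r = 0.994, 0.978 and 0.974, and the low dose at 3.5 h, replicate 1, at r = 0.782. The files best matched to the columns of 3.5 h were all recorded as replicate 1, and those of 48 h all as replicate 2. By those records the early and late columns differ in experiment, which cannot be told apart from time here. The value columns carry the group labels used here. Results that rest on the files as recorded are named as such, mostly with the dependence on processing.

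Irf1 was the member with a higher level in the LECT2 sample by more than 1 log2 unit on every array. At 3.5 h its effects were 1.68 and 1.48 on the low-dose arrays and 1.85 and 1.67 on the high-dose arrays. At 48 h they were 1.67 and 1.26 at the low dose and 2.55 and 1.90 at the high dose. Irf1 rose 2.99-fold at the low dose at 3.5 h (log2 1.58 ± 0.24, adjusted p = 0.0153), 3.39-fold at the high dose at 3.5 h (1.76 ± 0.24, adjusted p = 0.00367) and 4.67-fold at the high dose at 48 h (2.22 ± 0.24, adjusted p = 0.00484). At the low dose at 48 h the mean was 1.47 ± 0.24, not past the threshold (adjusted p = 0.0862). A second Irf1 probe, for another annotated transcript, gave positive values on all 8 arrays, from 0.76 to 1.98, with its control dye above background on 5 of them. Neither dose difference of Irf1 passed the threshold: high minus low was 0.18 at 3.5 h (95% interval -0.62 to 0.98) and 0.76 at 48 h (-0.04 to 1.56). The low-dose call at 3.5 h was lost without replicate 1, the array whose column matched its file at r = 0.782 (1.48, adjusted p = 0.139). The high-dose calls were lost without replicate 1 at 3.5 h (1.67, adjusted p = 0.0588), and at 48 h without replicate 1 (1.90, adjusted p = 0.0824) and without replicate 2 (2.55, adjusted p = 0.0516).

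Irf7, the factor that amplifies type I interferon production, had the largest effects among the 8 members at 48 h. On the replicate 1 and replicate 2 arrays its log2 effects were 1.33 and 0.32 at the low dose and 2.70 and 1.49 at the high dose at 3.5 h. At 48 h they were 4.20 and 2.97 at the low dose and 4.43 and 2.62 at the high dose. Replicate 1 was the higher array in each of the 4 groups, and every value was above 0. Irf7 rose 4.28-fold at the high dose at 3.5 h (2.10 ± 0.53, adjusted p = 0.0283) and 11.5-fold at the high dose at 48 h (3.53 ± 0.53, adjusted p = 0.0109). At the low dose it did not pass the threshold at 3.5 h (0.83 ± 0.53, adjusted p = 0.411) or at 48 h (3.59 ± 0.53, adjusted p = 0.0665). The replicate number was also fitted as a block, to take up the difference between experiments as the columns label them. With the block the low-dose mean at 48 h passed the threshold (adjusted p = 0.00725), ranking at percentile 99.9 of all genes. The 48 h effect minus the 3.5 h effect was 2.76 ± 0.74 at the low dose and 1.43 ± 0.74 at the high dose (adjusted p = 0.251 and 0.256). With the block the adjusted p became 0.0528 and 0.0424. With the scanner files as recorded, Irf7 was at 1.41, 0.42, 2.94 and 1.57 on the replicate 1 arrays (low and high dose at 3.5 h, then at 48 h). On the replicate 2 arrays it was at 3.58, 2.58, 4.39 and 2.92, so replicate 2 was then the higher array in each group. The high-dose calls were lost without replicate 1 (1.49 at 3.5 h and 2.62 at 48 h, adjusted p = 0.285 and 0.116) and without replicate 2 (2.70 and 4.43, adjusted p = 0.0758 and 0.0624).

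Irf9 rose at the high dose at 3.5 h, by log2 0.93 ± 0.25 (adjusted p = 0.0338), with 1.02 and 0.84 on the 2 arrays. Its other values were 0.36 and 0.55 at the low dose at 3.5 h, 0.57 and 0.44 at the low dose at 48 h, and 0.71 and -0.09 at the high dose at 48 h. None of those 3 groups passed the threshold, and the replicates of the last had opposite signs. The call at the high dose was lost with median centring of the matched scanner files (0.26, adjusted p = 0.425), where the median of all genes was -0.27 in that group, and without replicate 1 (0.84, adjusted p = 0.217) or replicate 2 (1.02, adjusted p = 0.122).

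Irf2, like Irf8 below, had values of opposite sign at the early and the late time on all 8 arrays, by the column labels. With the scanner files as recorded the sign of Irf2 followed the replicate, as given with the dependence on processing. At 3.5 h it was lower in the LECT2 sample on all 4 arrays, at -0.74 and -0.69 for the low dose and -1.15 and -1.36 for the high dose. At 48 h it was higher on all 4, at 0.74 and 0.76 for the low dose and 0.79 and 0.69 for the high dose. Irf2 fell at the high dose at 3.5 h (-1.26 ± 0.20, adjusted p = 0.00562). The other 3 group means were -0.72 ± 0.20 at the low dose at 3.5 h (adjusted p = 0.0828), 0.75 ± 0.20 at the low dose at 48 h (0.228) and 0.74 ± 0.20 at the high dose at 48 h (0.0523), none past the threshold. The difference itself, 48 h minus 3.5 h, was 2.00 ± 0.28 at the high dose (adjusted p = 0.0146), the only member called among the time differences, and 1.47 ± 0.28 at the low dose (adjusted p = 0.122). Of all genes tested, 8.31% were called in the time difference at the high dose (4.52% higher, 3.79% lower) and 0.0995% at the low dose (0.0153% higher, 0.0842% lower). The call at the high dose was lost when any of its 4 arrays was left out (1.89 to 2.10, adjusted p from 0.0581 to 0.0823), as were nearly all calls of this difference, with 0 to 2 of all genes called against 2171 on all arrays, and that of the high dose at 3.5 h without replicate 1 (-1.36, adjusted p = 0.0519).

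Irf8, the lineage factor of macrophages and dendritic cells, was lower in the LECT2 sample at the low dose at 3.5 h, with -0.77 and -1.12 on the 2 arrays, and higher at the low dose at 48 h, with 1.30 and 0.94. Neither mean passed the threshold (-0.95 ± 0.23, adjusted p = 0.0605, and 1.12 ± 0.23, adjusted p = 0.133). The time difference at the low dose was 2.06 ± 0.32 (adjusted p = 0.0994). At the high dose the values were -0.10 and -0.57 at 3.5 h and 0.19 and 0.25 at 48 h, closer to 0 at both times. The dose difference at 48 h was -0.90 (95% interval -1.65 to -0.15), with an adjusted p of 0.415.

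Irf3, Irf4 and Irf5 passed the threshold in no comparison. Irf5 was near 0 on 6 arrays, from -0.13 to 0.51, and at -0.80 and -0.71 on the high-dose arrays at 48 h, with a mean there of -0.75 ± 0.22 (adjusted p = 0.0647). Irf3 ranged from -0.69 to 0.34, and its means lay between -0.62 ± 0.22 at the high dose at 48 h (adjusted p = 0.104) and 0.25 ± 0.22 at the low dose at 3.5 h (adjusted p = 0.56). At the low dose at 48 h the interval of the Irf3 effect was -0.47 to 0.54. Irf4 had replicates of opposite sign at 3.5 h, at -0.70 and 0.83 for the low dose and -0.40 and 0.33 for the high dose. Its effects at 48 h were -0.69 and 0.08 at the low dose and -0.83 and -0.45 at the high dose, and the standard error of 0.40 left intervals as wide as -0.86 to 0.98 (low dose, 3.5 h).

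**Figure D1:**
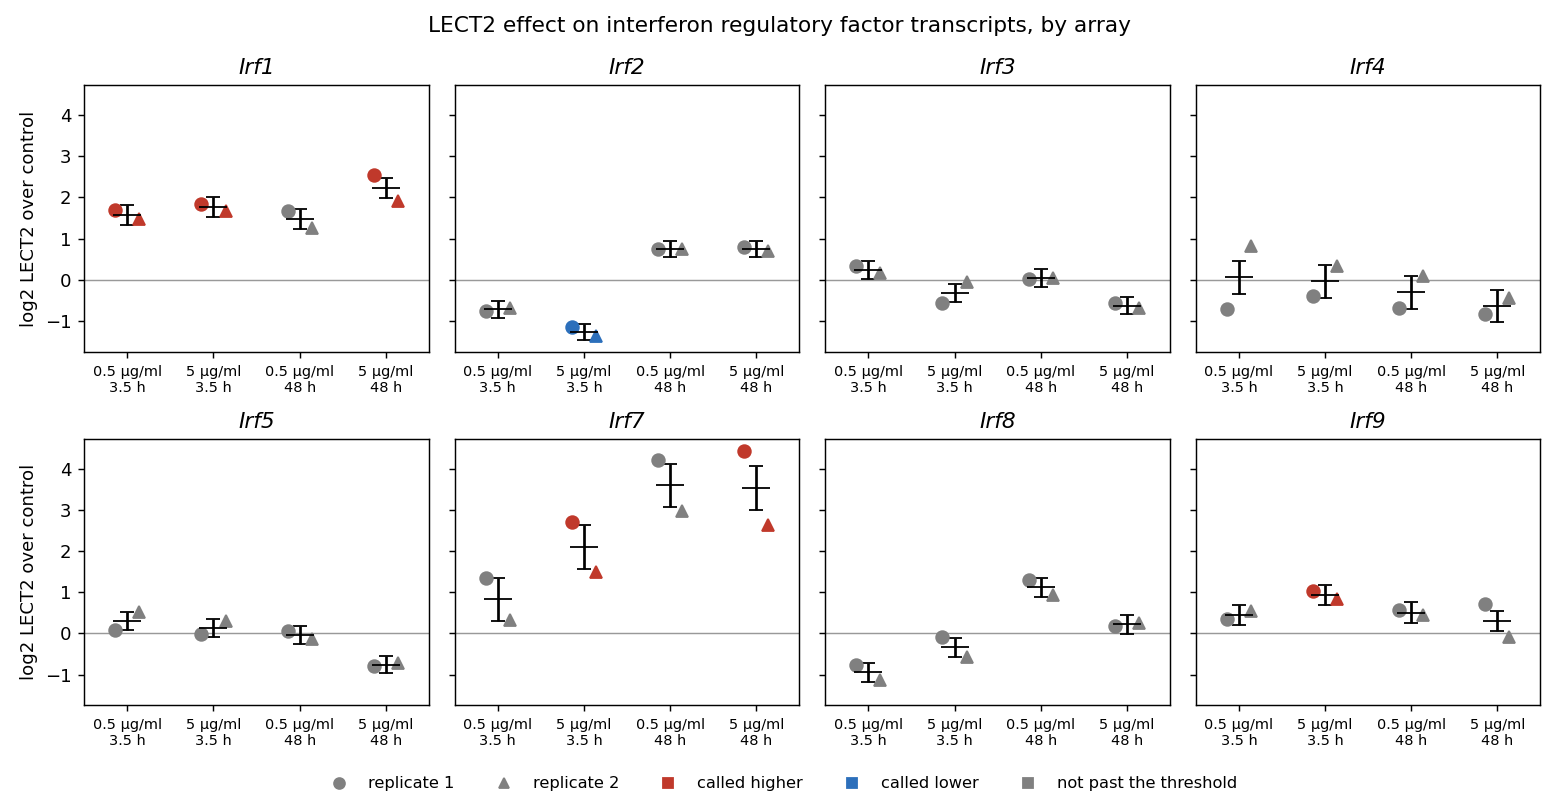
LECT2 effect (log2 LECT2 over control) on each of the 8 members, by dose and time. Circles and triangles are the arrays of replicates 1 and 2, bars the mean ± SE of the limma fit, and colour marks the calls: Irf1 is above 1 on all arrays, Irf7 reaches 4.43 at 48 h, and Irf2 lies below 0 at 3.5 h and above 0 at 48 h.

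At the low dose at 3.5 h, 1 of the 8 members was called higher and 0 lower, where 2.73% of all genes were called higher and 2.15% lower (4.88% in either direction). At the high dose at 3.5 h 3 members were called higher and 1 lower, where 10.2% of all genes were higher and 11.7% lower (21.9%). At the low dose at 48 h limma called 0 members, with 4 at an unadjusted p under 0.05, where 0.153% of all genes were higher and 0.0191% lower (0.172%). At the high dose at 48 h 2 members were called higher and 0 lower, where 4.3% of all genes were higher and 6.92% lower (11.2%). The split over all genes moved with the scaling: median centring of the matched files gave 771 higher and 2676 lower at the low dose and 2845 and 9057 at the high dose at 3.5 h, and 25 and 60, then 1788 and 6890, at 48 h. With the deposited values these were 714 and 561, 2664 and 3066, 40 and 5, and 1123 and 1808 in the same order; centring the deposited columns gave 526 and 840, then 1849 and 4204, at 3.5 h. The median effect of the members was 0.28 at the low dose and 0.05 at the high dose at 3.5 h, and 0.63 and 0.26 at 48 h. In the dose differences limma called 0 members and 0 of all genes at either time, with 0 and 2 members (2046 and 2737 genes) at an unadjusted p under 0.05 at 3.5 h and 48 h. Across the 8 arrays the effects of Irf7 and Irf8 were the most alike of the 28 member pairs (Pearson r = 0.84) and those of Irf4 and Irf7 the most opposed (r = -0.72). These arrays are not independent, since some share a dose and time and some an experiment.

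**Figure D2:**
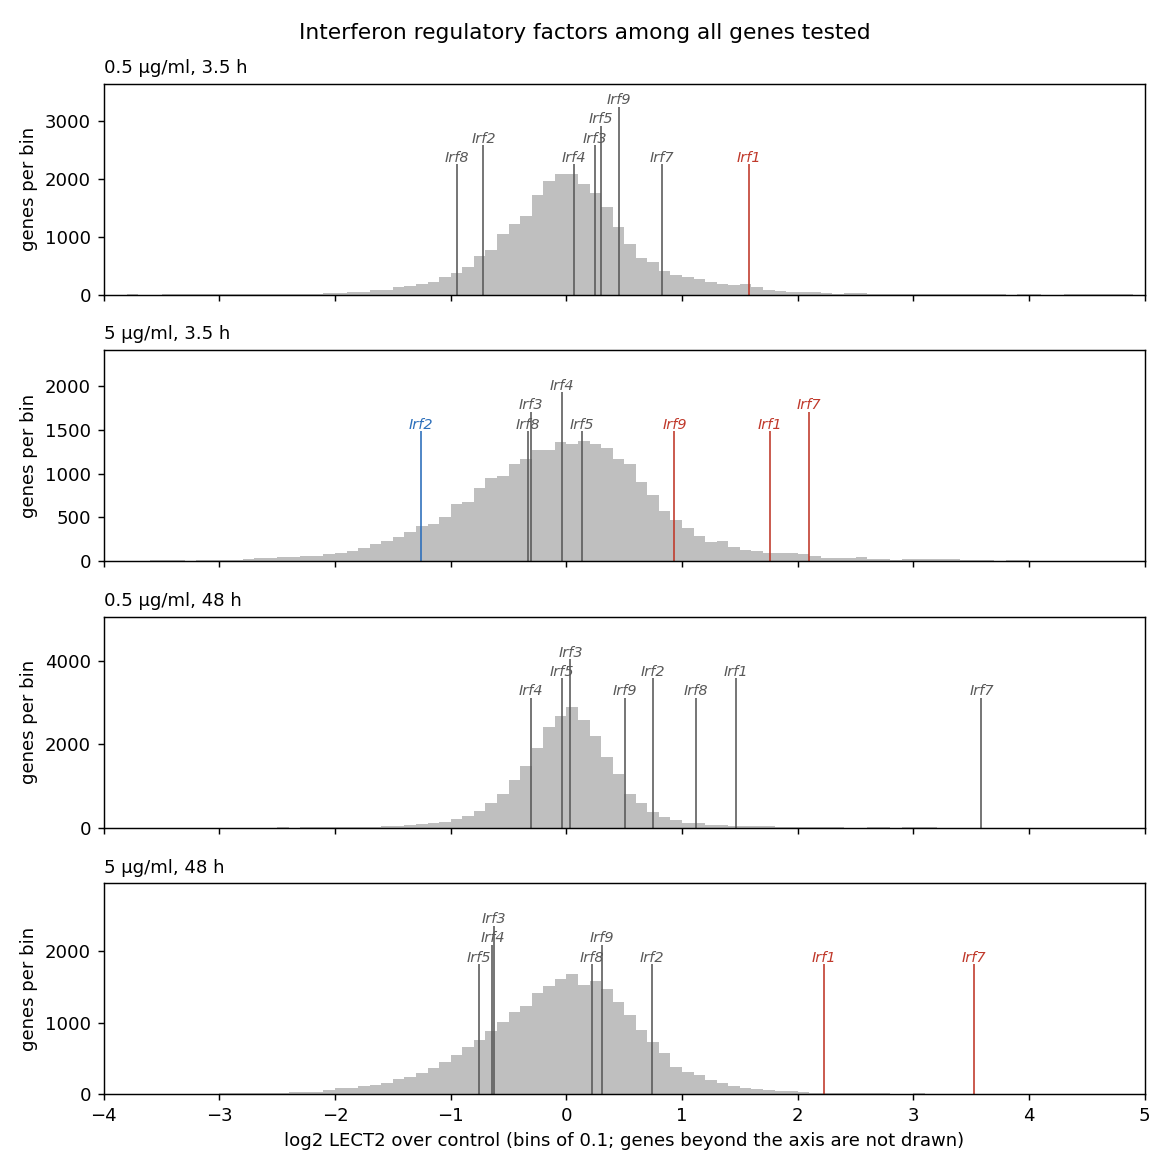
Histograms of the LECT2 effect (log2 LECT2 over control) of all genes tested in each group, with the members marked by vertical lines (red, called higher; blue, called lower; grey, not past the threshold). Irf7 lies at the far right at 48 h (3.59 and 3.53), and Irf3, Irf4 and Irf5, called in none of the 4 panels, lie between -0.75 and 0.30.

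Levels in each dye were read from the scanner files matched to the value columns, normalised within and between arrays, and are log2 intensities that can be compared between samples of the same probe only. In bulk RNA, fewer cells of a type and less RNA per cell cannot be told apart. Under this match the arrays of 3.5 h and 48 h lay on different slides, so slide and time cannot be told apart. By the labels of the value columns the 4 arrays of a time came from only 2 experiments. By the records of the matched files, those of 3.5 h were all replicate 1 and those of 48 h all replicate 2. Under those records time, slide and experiment cannot be told apart in the levels below. In control samples Irf7 had 10.39, 10.52, 9.81 and 10.35 at 48 h, against 12.63, 12.49, 12.41 and 12.43 at 3.5 h (low-dose replicates 1 and 2, then high-dose replicates 1 and 2 in each case). All 4 control levels of Irf7 at 48 h were below all 4 at 3.5 h, a difference of -2.22 between means. In LECT2 samples Irf7 ranged from 12.93 to 14.19 at 48 h, against 12.91 to 15.36 at 3.5 h, so that the times overlapped.

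The same held for Irf2 and Irf8. Irf2 in control samples ranged from 9.94 to 10.13 at 48 h, against 11.14 to 11.86 at 3.5 h, while in LECT2 samples it ranged from 10.54 to 10.83 at 48 h, against 10.55 to 11.18 at 3.5 h. Irf8 in control samples ranged from 12.40 to 12.75 at 48 h, against 13.29 to 13.77 at 3.5 h. In LECT2 samples Irf8 ranged from 12.74 to 13.63 at 48 h, against 12.43 to 13.93 at 3.5 h. For these 3 genes the control level differed between the times and the LECT2 level overlapped.

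Irf3, Irf4, Irf5 and Irf9 were lower at 48 h in both dyes, with all 4 arrays of 48 h below all 4 of 3.5 h. The differences between means in control samples were -0.62 for Irf3, -1.11 for Irf4, -1.05 for Irf5 and -0.90 for Irf9, and in LECT2 samples -0.89, -1.46, -1.73 and -1.38 in the same order. Irf1 overlapped between times in both dyes, at 12.01 to 12.51 in control samples at 48 h against 11.95 to 12.20 at 3.5 h. In LECT2 samples Irf1 was at 13.64 to 13.92 and 13.81 to 13.90 at the low dose (3.5 h and 48 h). At the high dose it was at 14.00 to 14.09 and 14.40 to 14.60. These levels were not tested between doses, and neither dose difference of the Irf1 effect passed the threshold. In all, 7 of 8 members were lower at 48 h without overlap in control samples, where 17.2% of all genes were lower and 16.2% higher in this way, and 4 of 8 in LECT2 samples, where 19.8% of all genes were lower and 19.5% higher. The same 7 and 4 held with 2 other scalings of these files, and 0 of 8 separated with the files as recorded.

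Ordered by the LECT2 level, the groups of Irf7 were the low dose at 3.5 h (13.48 ± 0.80, SD, n = 2 in each group), the high dose at 48 h (13.56 ± 0.90), the low dose at 48 h (13.71 ± 0.38) and the high dose at 3.5 h (14.68 ± 0.96), and the neighbours overlapped, except the last pair, where the higher array of the low dose at 48 h (13.98) lay just under the lower array of the high dose at 3.5 h (14.00). For Irf9 the order was the high dose at 48 h (11.40 ± 0.15), the low dose at 48 h (11.45 ± 0.15), the low dose at 3.5 h (12.55 ± 0.04) and the high dose at 3.5 h (13.06 ± 0.29). The first pair of Irf9 groups overlapped and the other neighbours did not. For Irf5 the high dose at 48 h was lowest (11.05 ± 0.04), the low dose at 48 h next (11.76 ± 0.18), and the high and low dose at 3.5 h, which overlapped, were highest (13.11 ± 0.20 and 13.17 ± 0.14). These orders were not tested, and the share of all genes whose groups of 2 arrays separate in this way was not counted.

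**Figure D3:**
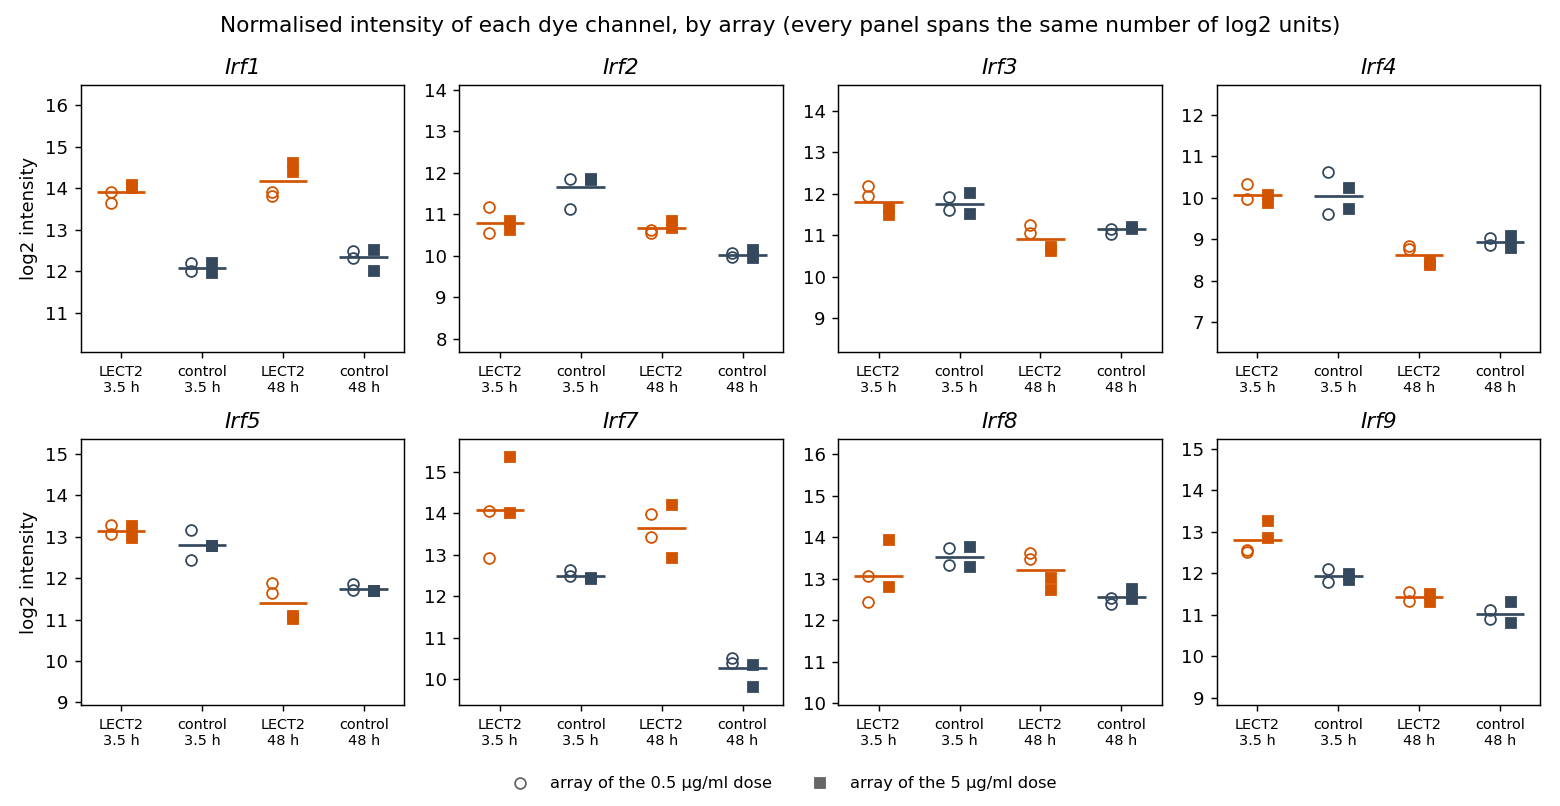
Log2 intensity of each member in the LECT2 dye (orange) and the control dye (dark blue) at 3.5 h and 48 h, from the matched scanner files. Points are arrays (open circles low dose, filled squares high dose) and lines are means of 4 arrays: the control levels of Irf2, Irf7 and Irf8 are lower at 48 h than at 3.5 h, and their LECT2 levels overlap between the times.

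Genes whose effects varied most like those of a called member over the 8 arrays were taken from 4722 named genes above background on all 8 arrays and with a mean effect of at least 1 log2 unit, in either direction, in 1 group or more (4723 for Irf9). For Irf1 they were the cytokine gene Il1b (Pearson r = 0.98), the nuclear receptor gene Nr4a2 (0.97) and the Ras activator gene Rasgrp1 (0.97). For Irf7 they were the Fc receptor gene Fcgr4 (0.98), the immediate early gene Fos (0.97) and the antiviral gene Oas3 (0.95), and for Irf2 they were Rcbtb2, Lrrc20 and Tspyl4 (0.99 each). A high r does not mean an equal level or sign of the effect. Fos had means of -2.80 (low dose) and -1.77 (high dose) at 3.5 h and 0.42 and -0.24 at 48 h, where Irf7 was above 0 in all 4 groups. The means of Lrrc20 were -1.22 and -1.76 at 3.5 h and -0.30 and -0.23 at 48 h, where Irf2 was at 0.75 and 0.74. For Irf9 the closest were Usp18, which dampens interferon receptor signalling, and Cmpk2, both interferon-stimulated genes (0.93 and 0.92), and Asic5 (0.91). These correlations describe 8 arrays that are not independent, since arrays share a group or an experiment.

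Shares of all genes tested are given first, for the counts of the lists below. At 3.5 h 2.73% rose and 2.15% fell at the low dose, and 10.2% rose and 11.7% fell at the high dose. At 48 h 0.153% rose and 0.0191% fell at the low dose, and 4.3% rose and 6.92% fell at the high dose. An excess of a list over these shares was not tested. Among 24 sensors and kinases that lie upstream of the factors, 5 rose and 0 fell at the low dose and 10 rose and 1 fell at the high dose at 3.5 h, with list medians of 0.46 and 0.65. At 48 h 0 were called at the low dose, and 8 rose and 0 fell at the high dose (median 0.66). Ifih1, a sensor of viral RNA, rose by log2 2.57 ± 0.27 at the low dose and 2.85 ± 0.27 at the high dose at 3.5 h, and Myd88, the adaptor of most Toll-like receptors, by 1.88 ± 0.29 and 2.29 ± 0.29. Ikbke, a kinase of Irf3 and Irf7, rose at the low dose at 3.5 h (1.66 ± 0.34). At the high dose at 48 h Zbp1, a sensor of Z-form nucleic acid, rose by 1.83 ± 0.23. The kinase Irak1 fell at the high dose at 3.5 h (-0.99 ± 0.27).

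Of the 14 interferon, receptor and transducer genes tested, 1 rose at the low dose and 6 at the high dose at 3.5 h, and at 48 h 0 were called at the low dose, and 6 rose and 1 fell at the high dose. List medians were 0.24 and 0.58 at 3.5 h and 0.29 and 0.42 at 48 h. Jak2, a kinase of the interferon gamma receptor, rose by 2.16 ± 0.27, 2.52 ± 0.27 and 2.27 ± 0.27 at the low dose at 3.5 h, the high dose at 3.5 h and the high dose at 48 h. Ifng itself rose by 3.25 ± 0.73 at the high dose at 3.5 h, and at least 7.47-fold at the high dose at 48 h (adjusted p = 0.00601), where its control dye was not well above background and was set to the lowest such signal. Markers of T and NK cells, which make interferon gamma, were at a higher summed level in the LECT2 dye than in the control dye on all 8 arrays, and their part in the result was not tested. Ifnb1, the interferon beta gene, rose at the high dose at 3.5 h (1.96 ± 0.42), with its control dye above background on 1 of the 2 arrays. Stat2, a partner of Irf9 in ISGF3, was at 1.00 ± 0.25 and 1.66 ± 0.25 at 3.5 h and at 1.60 ± 0.25 and 1.94 ± 0.25 at 48 h (low dose, then high dose), called at the high dose only. Ifngr1, the ligand-binding chain of the interferon gamma receptor, fell at the high dose at 48 h (-1.36 ± 0.22).

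Among 15 partner factors, 7 rose and 1 fell at the low dose and 7 rose and 4 fell at the high dose at 3.5 h (medians 0.70 and -0.09). At 48 h 0 were called at the low dose, and 1 rose and 2 fell at the high dose (medians 0.04 and -0.21). Batf2, which pairs with Irf1, rose by 2.30 ± 0.33 and 3.03 ± 0.33 at 3.5 h and by 2.16 ± 0.33 at the high dose at 48 h. Nfkb1 rose by 2.16 ± 0.23 and Ets2 by 2.34 ± 0.33 at the high dose at 3.5 h. Irf2bpl, a relative of the corepressors that bind Irf2, fell by 1.65 (SE 0.21) at the low dose at 3.5 h, and was at -1.52 ± 0.21 and -1.11 ± 0.21 at the high dose at 3.5 h and 48 h, both called. The effect of 5 of the 15 was lower at 48 h than at 3.5 h at the high dose, Nfkb1 among them (-2.35 ± 0.33), and that of 0 was higher. Of all genes tested, 3.79% were called lower and 4.52% higher in that difference.

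Known targets of ISGF3, Irf3 and Irf7 were the list with the most calls. Of 21 tested, 15 rose at the low dose and 21 at the high dose at 3.5 h, and 9 and 18 at 48 h, with 0 lower in the 4 groups. The list medians were 1.99 and 2.91 at 3.5 h and 2.23 and 2.15 at 48 h. Ifit2, an antiviral RNA-binding protein, rose by 2.91 ± 0.25 and 4.15 ± 0.25 at 3.5 h and by 4.55 ± 0.25 and 4.36 ± 0.25 at 48 h. Cxcl10, a chemokine for T cells, rose by 3.91 ± 0.48 and 4.45 ± 0.48 at 3.5 h, and Ifit1 by 4.75 ± 0.24 at the high dose at 48 h. The time difference at the high dose was called higher for Ifit1 (1.42 ± 0.34) and lower for the ubiquitin-like modifier Isg15 (-2.20 ± 0.30) and for Oasl1 (-2.59 ± 0.55).

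Of 21 targets of Irf1 and Irf8 tested, 6 rose and 0 fell at the low dose and 11 rose and 1 fell at the high dose at 3.5 h, and 3 rose and 0 fell, and 13 rose and 1 fell, at 48 h. The medians were 0.91 and 1.09 at 3.5 h and 1.07 and 1.46 at 48 h. Gbp3, a guanylate-binding protein of cell-autonomous defence, rose by 1.99 ± 0.27 and 2.10 ± 0.27 at 3.5 h and by 3.15 ± 0.27 and 4.69 ± 0.27 at 48 h. Il27, a cytokine subunit gene, rose by 3.46 ± 0.21 and 4.95 ± 0.21 at 3.5 h, and its effect at the high dose was lower at 48 h than at 3.5 h (-5.64 ± 0.30, adjusted p = 0.00141). At the high dose Cst3, the gene of cystatin C, fell at 48 h (-1.38 ± 0.34), and Ctss, a lysosomal protease, fell at 3.5 h (-1.44 ± 0.39).

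All 7 tested targets of Irf5, inflammatory cytokines and chemokines that NF-kB also drives, rose at both doses at 3.5 h, with medians of 3.65 and 3.95. At 48 h 0 passed at the low dose and 3 rose at the high dose (medians 1.14 and 0.73). Tnf rose by 5.58 ± 0.36 and 5.82 ± 0.36 at 3.5 h and was at 0.87 ± 0.36 and 0.50 ± 0.36 at 48 h, both not past the threshold. Il23a rose at least 10.6-fold at the low dose at 3.5 h, from a control dye not well above background, and by 6.02 ± 0.20 at the high dose. Il12a rose at least 3.82-fold, again from a dim control, and Il6 by 3.24 ± 0.44 at the high dose at 48 h. Irf5 itself was near 0 at 3.5 h (0.30 and 0.13).

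Of 11 targets of Irf4 and genes of alternative activation, 1 rose and 0 fell at the low dose and 3 rose and 0 fell at the high dose at 3.5 h. At 48 h 0 were called at the low dose, and 1 rose and 1 fell at the high dose. Of all genes tested at the high dose, 10.2% rose and 11.7% fell at 3.5 h, and 4.3% rose and 6.92% fell at 48 h. Medians were 0.13 and -0.18 at 3.5 h and 0.20 and 0.19 at 48 h. Kdm6b, a histone demethylase, rose by 0.96 ± 0.21 and 1.98 ± 0.21 at 3.5 h. Ccl22, a chemokine gene, rose by 1.91 ± 0.49 and Mrc1, the mannose receptor gene, fell (-1.83 ± 0.37) at the high dose at 48 h. Il10 rose at the high dose at 3.5 h (4.91 ± 0.47), with its control dye above background on 1 of the 2 arrays.

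Of 12 negative regulators of the factors, 6 rose at each dose at 3.5 h and 0 fell (medians 0.89 and 1.04), and at 48 h 0 were called at the low dose and 6 rose and 1 fell at the high dose (medians 0.23 and 1.07). Socs1, an inhibitor of Jak kinases that is also in the list of Irf1 and Irf8 targets, rose by 2.63 ± 0.29 and 3.32 ± 0.29 at 3.5 h and by 2.23 ± 0.29 at the high dose at 48 h. Trim30a rose by 2.13 ± 0.29 at the low dose at 3.5 h. Trim27 fell at the high dose at 48 h (-1.08 ± 0.22). The lists overlap in part, since Usp18 stands in 2 of them as well.

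**Figure D4:**
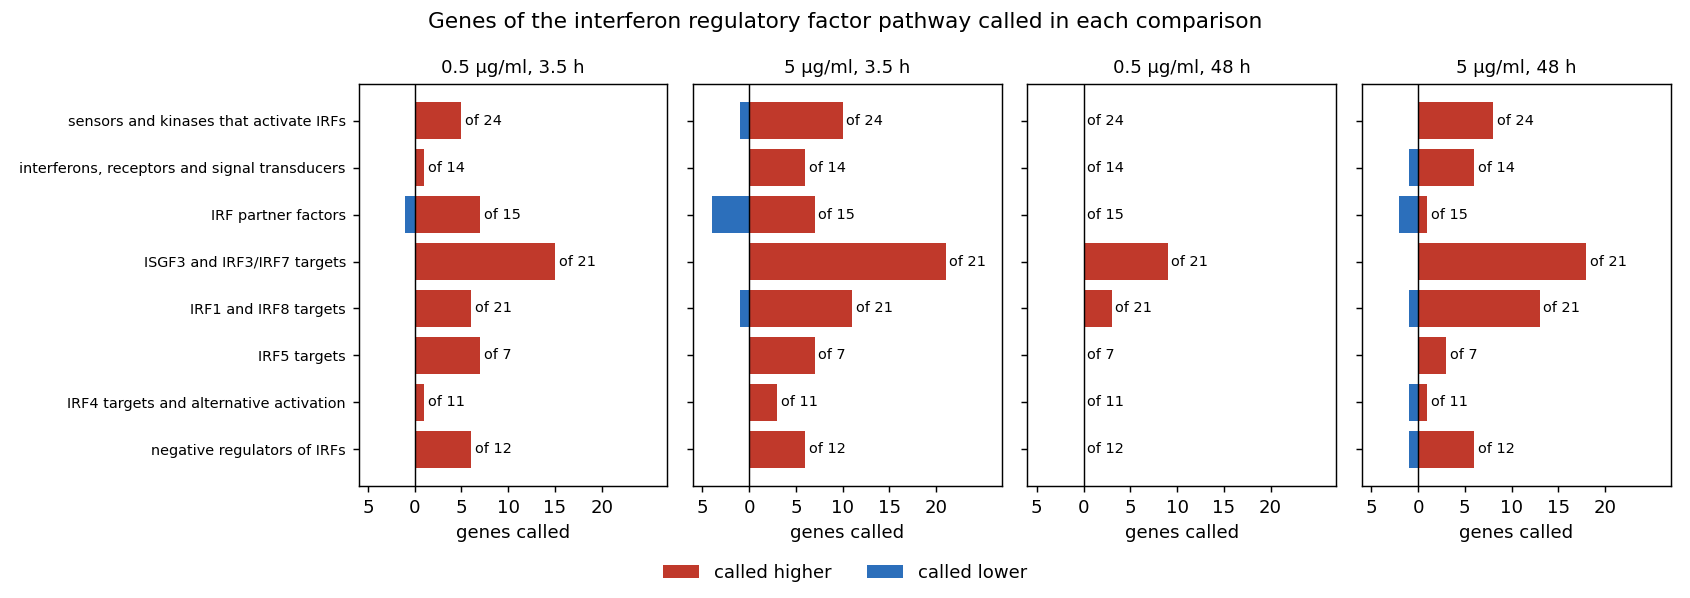
Genes called higher (red, right of 0) and lower (blue, left of 0) in 8 lists of genes around the interferon regulatory factors, by dose and time, with the number tested beside each bar. Targets of ISGF3, Irf3 and Irf7 reach 21 of 21 at the high dose at 3.5 h, and at the low dose at 48 h calls are found in 2 of the 8 lists. Of all genes tested, 10.2% were higher and 11.7% lower at the high dose at 3.5 h, and 0.153% and 0.0191% at the low dose at 48 h.

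The label of the cells was checked against markers. The 9 markers of peritoneal macrophages tested, among them Adgre1, Csf1r and Gata6, were above background in both dyes on all 8 arrays. Among these 9, Timd4 rose (1.11 ± 0.23) and Gata6 fell (-1.03 ± 0.21) at the low dose at 3.5 h, Cd14 rose (2.77 ± 0.65) and Lyz2 and Csf1r fell (-2.01 ± 0.31 and -1.03 ± 0.31) at the high dose at 3.5 h, and Gata6 fell at the high dose at 48 h (-1.35 ± 0.21). Markers of other cells were present too: all 8 T and NK cell markers tested were above background in the LECT2 dye at 3.5 h. The summed level of those 8 ranged from 4236 to 12270.2 in the LECT2 dye and from 2581 to 5636 in the control dye (linear intensity), and 1 of them rose at the low dose and 3 at the high dose at 3.5 h, and 0 and 2 at 48 h, with 0 lower. The summed level of 7 markers of mesothelium and fibroblasts differed by replicate. On the replicate 1 arrays it was 17364, 18259, 44371 and 40339 in the LECT2 dye, against 17282, 16950.4, 47261 and 43827 in the control dye (low and high dose at 3.5 h, then at 48 h). On the replicate 2 arrays it was 14033, 19985, 35178 and 38384 in the LECT2 dye, against 62369.7, 50125, 79244 and 81646 in the control dye, so that the control dye was far higher on each of these 4. Of the 7, Wt1 fell in 3 of the 4 groups (-1.67 ± 0.20, -1.25 ± 0.20 and -1.68 ± 0.20). Of 8 B cell markers Blk and Cr2 rose at the high dose at 3.5 h (1.07 ± 0.28 and 0.96 ± 0.23). Of 8 dendritic cell markers, Zbtb46 rose at both doses at 3.5 h (low dose 2.72 ± 0.23, high dose 3.31 ± 0.23), as did Ccr9 (1.19 ± 0.21 and 1.30 ± 0.21). Xcr1 rose at the high dose at 3.5 h (2.12 ± 0.40, control dye above background on 1 of 2 arrays). There Clec9a fell at least 1.23-fold, with its LECT2 dye not well above background on either array. The control dye of Clec9a was above background on only 1 of these 2 arrays. Cd209a fell at the high dose at 3.5 h and 48 h (-1.64 ± 0.45 and -4.87 ± 0.45). Of 5 neutrophil markers Camp rose at the high dose at 3.5 h (1.31 ± 0.30) and S100a8 at the high dose at 48 h (2.99 ± 0.35). At the high dose S100a9 and Ngp were below 0 at 3.5 h (-0.70 and -0.50) and at 48 h (-0.40 and -1.55). Csf3r was above 0 at both times, as were Camp at 48 h and S100a8 at 3.5 h, and none of these passed the threshold. The LECT2 dye was above background on 0 of the 8 arrays for Ngp and on 2 for S100a9. Of 5 mast cell markers Hdc, the gene of histidine decarboxylase, rose at the high dose at 3.5 h (4.52 ± 0.31, control dye above background on 1 of 2 arrays). At the low dose at 3.5 h Hdc rose at least 1.77-fold, with its LECT2 dye above background on 1 of 2 arrays. Cpa3, Fcer1a, Kit and Mcpt4 were below 0 at the high dose at 3.5 h (-0.38, -1.11, -0.17 and -0.52), none past the threshold. The part of these markers in the effects on Irf1, Irf7 and the interferon-stimulated genes was not tested.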

How the data were processed

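RNA of LECT2-treated macrophages and of control macrophages was hybridised together on 8 two-colour arrays. Per the file headers and the submitters' processing notes, Agilent Feature Extraction (version 10.7.3.1) made the deposited scanner files, which hold the intensity of each spot and its background in both dyes. They also hold the software's log10 ratio, deposited as red over green and, per the file headers, background-subtracted and dye-normalised. The deposited values of the series are log2 ratios of Cy5 (control) over Cy3 (LECT2), 1 column for each sample; how they were made is not given in the sources used here. The dyes come from the labels, which run opposite to the order in the sample titles, and the labels' protocol text names only Cy3. The early time is 3.5 h in the titles, used here, but 3 h in the channel labels. Each value column was compared with every scanner file, and levels use the files so matched; scale and direction follow from that match, and no centring of the columns was seen, with column medians from -0.22 to 0.08.

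Values were turned to LECT2 over control. A probe was kept if 2 or more of the 8 arrays had it well above background in either dye, and the brightest probe stood for a gene (26123 genes, 16730 with a symbol from the RefSeq table of GRCm38.p6, used for names and promoters since the array annotation is on mm9). The R package limma (3.58.1, under R 4.3.3) fitted 1 mean per group with 4 residual degrees of freedom, and p-values were adjusted by Benjamini-Hochberg over every gene, with a threshold of 0.05. Precision is limited by how few arrays there are. The fit was also run on simulated data with independent errors on each array. Those data held no shared effect of experiment, slide or dye, so that run does not bear on such effects. Levels used normexp with an offset of 50, loess within arrays and quantile scaling of average intensity between them. The members and the gene lists were chosen with earlier results of these data known. Listed genes are named where they were among the 4 largest called changes of a list in a comparison, though not every such gene is named here; the genes kept in the text, and the values of a named gene in further comparisons, were chosen after their values were seen. Ifna4, Mx1, Mx2, Ddx60, Il12b, Cd68 and Ly6g were listed and are not among the genes tested.

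The series' design text gives 2 independent experiments, taken here as replicates 1 and 2, so the replicate number was also fitted as a block (3 residual degrees of freedom). Deviations from the group means correlated between groups at r = 0.05, 0.17, 0.20, 0.00, -0.06 and 0.47. The other alternatives were the source of the values, the scaling, the filter, the probe rule, the variance model, the arrays fitted and leaving out each array.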

Additional observations from a re-analysis of the deposited data

Results flagged for a closer look

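The LECT2 effect on Irf2 differed between the times at the high dose: the effect at 48 h minus that at 3.5 h was log2 2.00 ± 0.28 (adjusted p = 0.0146, limma), with 0.79 and 0.69 on the arrays of 48 h and -1.15 and -1.36 on those of 3.5 h. It was selected because the test of the difference between effects passed the threshold. At the low dose the same difference was 1.47 ± 0.28 and did not pass it (adjusted p = 0.122). With the scanner files as recorded the high-dose difference was -0.34. In those files Irf2 was below 0 on each replicate 1 array and above 0 on each replicate 2 array, at both times. Groups of 2 arrays are too small for a test of outlying samples.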

How the results depend on the processing

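Over 23 settings, 920 of 984 recomputed values of members kept their direction and their side of the threshold, 32 passed it newly, 28 no longer passed it and 4 reversed, and 96 values that were not called had the other sign. The 4 reversals were Irf2 at the high dose at 3.5 h (0.056) and its time difference at the high dose (-0.34). Each came with the scanner files as recorded, without and with the replicate block. There Irf2 was at -0.67, -0.59, -0.99 and -1.24 on the replicate 1 arrays (low and high dose at 3.5 h, then at 48 h). On the replicate 2 arrays it was at 0.47, 0.70, 0.74 and 0.67 in the same order. The sign of Irf2 thus followed the replicate and not the time in those files, and the cause was not tested. With the files as recorded, the members called were 0 and 0 at 3.5 h (low and high dose), 1 and 0 at 48 h and 0 in the time difference at the high dose, against 1, 4, 0, 2 and 1 with the deposited values, and all genes called were 0, 0, 49 and 1 in the 4 groups, against 1275, 5730, 45 and 2931. At an unadjusted p under 0.05 those files gave 967, 2881, 3860 and 2678 genes. With the block added to them the members called were 2 and 2 at 3.5 h, 3 at the low dose at 48 h and 0 in that difference. Irf1 stayed positive in this setting, at 1.65, 1.76, 2.36 and 1.56. With the matched files and loess the members called were 3 at the low dose at 3.5 h, 4 at the high dose at 48 h, and 2 in each time difference; with their processed ratios 2 at the low dose at 3.5 h. With median centring they were 3 at the low dose at 3.5 h, 1 and 4 at 48 h and 1 in the time difference at the low dose, and the median of all genes was then -0.13 and -0.27 at 3.5 h and -0.14 and -0.25 at 48 h. All genes called were 3447 and 11902 at 3.5 h and 85 and 8678 at 48 h with that centring, and 117 to 1370, 901 to 2444, 0 to 5 and 14 to 57 when an array was left out. Centring the deposited columns gave 2 at the low dose at 3.5 h. A filter on all 8 arrays, which leaves 20214 genes to adjust over, gave 2 at the low dose at 3.5 h, and 2 and 4 at 48 h. Fitting only the arrays compared gave 0 and 1 at the low dose at 3.5 h and 48 h. The replicate block gave 1 at the low dose at 48 h and 2 in the time difference at the high dose (Irf7 in both), and changed no other call of a member. Leaving out an array gave 0 to 1 at the low dose at 3.5 h, 0 to 2 at the high dose at 3.5 h, 0 to 0 at the high dose at 48 h and 0 to 0 in the time difference at the high dose, the lone array being assumed to vary like the other groups. Without replicate 1, all 4 calls at the high dose at 3.5 h were lost, and without replicate 2 those of Irf7 and Irf9 (adjusted p = 0.0758 and 0.122). At the high dose at 48 h Irf1 was at 1.90 and 2.55 and Irf7 at 2.62 and 4.43 without either replicate (adjusted p from 0.0516 to 0.116). In an alternative chosen after seeing the data, matched files and loess without the array matched at r = 0.782, 0 members were called at the low dose at 3.5 h (Irf1 1.64, adjusted p = 0.055).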
